A study of Mus musculus with 24 samples.

Results

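Lewis Lung Cancer tumours treated with poly I:C and an antibody against PD-1 (dual) were compared with vehicle tumours by bulk RNA-seq. Lewis Lung Cancer is a mouse lung adenocarcinoma line, and the tumours were grown in wild-type mice. The comparison took the 16 tumours labelled with either treatment, 8 dual and 8 vehicle, of the 24 tumours in the series, and all 18723 genes of the expression table. Per the labels, dual mice were injected in the peritoneum with 100 ug of anti-PD-1 on days 7, 10 and 14 and in the tumour with 50 ug of poly I:C on days 11 and 15. Vehicle mice had vehicle only. The remaining 8 tumours, whose mice also had the C5a receptor blocker PMX53, are not compared here. Both agents were given to every dual mouse, so what each agent did cannot be told apart. Each tumour carries its own mouse number, and is named below as in the labels (D for dual, C for vehicle, then the mouse). The labels used here do not give the day of collection.

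Poly I:C is a synthetic double-stranded RNA. It is read by TLR3 in endosomes and by the RIG-I-like receptors in the cytosol, which act through the adaptors TRIF and MAVS on IRF3, IRF7 and NF-kappaB. Those factors are known to turn on type I interferon, antiviral proteins, cytokines and chemokines, and interferon in turn raises PD-L1, the ligand through which tumour and myeloid cells engage PD-1 on T cells.

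A large share of the transcriptome differed between the groups. In dual against vehicle tumours 3801 of 18723 genes were higher (20.3%) and 3937 were lower (21.0%) at an adjusted p under 0.05, which is what "called" means below. The median size of a called change was 0.519 on the log2 scale. Larger changes leaned towards increases: 196 genes rose and 144 fell by at least 4-fold, and 58 rose and 15 fell by at least 8-fold. All 8 dual tumours lay above all 8 vehicle tumours for 1087 genes (5.81%) and below them for 684 genes (3.65%). The median log2 fold change over all genes was -0.029. Protein-coding genes went both ways, with 3555 higher and 3135 lower of 14585. Of 2406 long noncoding RNA genes 608 were lower (25.3%) and 140 higher (5.82%), and the rest were not called.

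The dual tumours were not alike. Component 1 of a principal component analysis of the 9362 more highly expressed genes, with 61.95% of variance, placed 7 dual tumours at 15.16 to 32.9 and the vehicle tumours at -30.28 to -17.09. Dual tumour D_370 lay between the groups at -0.68. Dual tumour D_370 was also the dual tumour nearest to vehicle for 45.4% of called genes, followed by dual tumour D_344 at 20.6%, while the other 6 ranged from 2.64% to 10.1%. Of the 9362 genes, 65.1% had a larger SD among dual than among vehicle tumours, with median SDs of 0.173 and 0.145 log2 units. Vehicle tumour C_364 lay farthest out among the vehicle tumours. Without dual tumour D_370 the counts were 4192 genes higher and 4277 lower.

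**Figure D1:**
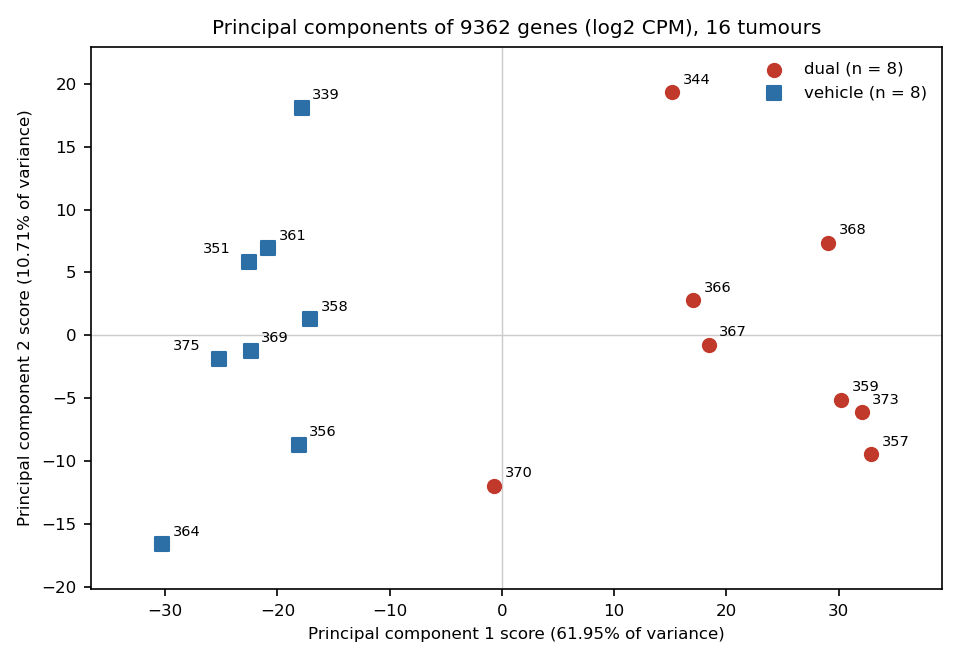
Principal component scores of 16 tumours from the log2 CPM of 9362 genes, with the share of variance on each axis and the mouse number of each tumour beside its point. The 7 other dual tumours (circles) lie right of 15 on the horizontal axis, all vehicle tumours (squares) lie left of -17, and dual tumour D_370 lies at -0.68.

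Depth, tissue identity and other cells were looked at before the genes. Reads assigned to genes ranged from 14535983 to 19046105 in dual tumours and from 14438318 to 17225195 in vehicle tumours. The library numbers of the 2 groups form separate blocks, so a library batch and the treatment cannot be told apart. Lung adenocarcinoma markers were weak: Nkx2-1, Sftpc and Sftpb had no values to analyse here, Epcam was at 0 reads in 7 of the 16 tumours, and Krt18 was at 22.2 to 47.7 CPM in dual and 24.6 to 58.2 CPM in vehicle tumours. The 20 skeletal muscle markers took 0.0301% to 0.111% of reads in dual and 0.0187% to 0.0652% in vehicle tumours. Of these 20 markers 4 were called higher, to be read against 20.3% of all genes. The count was 8 without D_367, 7 without C_351 and 12 with tumour weights. It was 2 with all 24 tumours in the fit and 1 with the exact Wilcoxon test. With the skeletal muscle score as a covariate 2 markers were higher and 1 lower. The adipocyte markers took 0.00555% to 0.0157% of reads in dual and 0.00259% to 0.00746% in vehicle tumours. Keratinocyte markers took at most 0.000627% of reads in dual and 0.00105% in vehicle tumours. With the skeletal muscle score as a covariate 3169 genes were higher and 3110 lower.

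Genes are given below as the lowest, median and highest CPM of the 8 tumours in each group. CPM are read counts scaled to the library size worked back from the deposited values. That size was 0.966 to 1.014 times the read total in dual and 1.002 to 1.073 times in vehicle tumours. Changes are log2 fold changes, dual over vehicle, with their SE from limma. Gene lists are described by how many members were called and by their median change, to be read against the 20.3% and 21.0% of all genes called higher and lower. Counts of members without overlap are to be read against the 5.81% of all genes wholly above and 3.65% wholly below. In each list of 5 or more genes for which limma called 0 members in a direction, 0 also passed in that direction with an exact Wilcoxon test or with voom weights. At an unadjusted p under 0.05 the count was 0 as well, except for 1 member of the type 2 dendritic cell list. In bulk RNA, more cells of a type and more RNA per cell cannot be told apart.

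Among the sensors of double-stranded RNA, the changes were modest and split. Of 20 sensors and adaptors, 8 rose and 2 fell, and the median change was 0.144. Dhx58, which encodes LGP2, a RIG-I-like receptor, lay at 35.6, 51.2 and 59.0 CPM in dual and 15.3, 27 and 38.4 CPM in vehicle tumours, a change of 0.92 ± 0.18 (adjusted p = 0.000409). Trim25, the ubiquitin ligase that assists RIG-I, lay at 159, 217 and 257 CPM in dual and 125, 140 and 153 CPM in vehicle tumours, a change of 0.62 ± 0.09 (adjusted p = 2.27e-05). Every dual tumour was above every vehicle tumour for Trim25, while the groups met for Dhx58. Ddx58, the gene of RIG-I itself, rose by 0.66 ± 0.15. Ifih1, the gene of MDA5, was at 15.6, 29.8 and 42.2 CPM in dual and 8.07, 18.5 and 20.9 CPM in vehicle tumours (0.79 ± 0.23, adjusted p = 0.00868), and this call was lost with all 24 tumours in the fit (adjusted p = 0.122), with the muscle covariate (adjusted p = 0.0542) and with the exact Wilcoxon test (adjusted p = 0.0515). Tlr3, the endosomal receptor for poly I:C, was at 10.6, 13.7 and 20.1 CPM in dual and 11.2, 16.1 and 19.3 CPM in vehicle tumours, with a change of -0.11 ± 0.14 that was not called. The adaptors Mavs and Ticam1 had changes of -0.00 ± 0.07 and -0.07 ± 0.09 and were not called. Irf3, the factor downstream of both routes, fell by 0.29 ± 0.06 on the log2 scale, to 34.6, 39.7 and 43.5 CPM in dual against 43.3, 47.5 and 50.2 CPM in vehicle tumours.

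Most genes of cytosolic DNA sensing and the HIN-200 family also rose. Of 14 genes in this list 9 rose and 1 fell, with a median change of 0.837. Ifi206 was at 16.5, 50.0 and 72.8 CPM in dual and 3.18, 9.52 and 11.5 CPM in vehicle tumours (2.59 ± 0.34, adjusted p = 8.17e-06). Ifi204, often called p204, was at 163, 247 and 273 CPM in dual and 57.0, 118 and 141 CPM in vehicle tumours (1.11 ± 0.16, adjusted p = 2.27e-05). Neither gene overlapped between the groups, though members of this family share sequence and their reads are less certain. The DNA sensor gene Cgas and its adaptor Sting1 changed by -0.29 ± 0.24 and -0.03 ± 0.07 and were not called, and Aim2 fell by 0.33 ± 0.10 on the log2 scale.

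Interferon transcripts themselves were scarce. Ifnb1, the gene of interferon beta, lay at 0, 0.0841 and 0.317 CPM in dual and 0, 0 and 0.200 CPM in vehicle tumours. Ifng, the gene of interferon gamma, lay at 0.0625, 0.689 and 1.53 CPM in dual and 0.173, 0.579 and 1.23 CPM in vehicle tumours. Neither passed the test, with changes of 1.11 ± 0.64 for Ifnb1 (adjusted p = 0.178) and 0.18 ± 0.50 for Ifng (adjusted p = 0.792).

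Downstream of the receptors, the feedback and amplifying factors of interferon signalling rose while 2 receptor chains fell. Of 21 receptor and signalling genes 10 rose and 3 fell. Irf7, the factor that amplifies type I interferon, was at 191, 356.4 and 454 CPM in dual and 42, 85.8 and 129 CPM in vehicle tumours (2.06 ± 0.22, adjusted p = 9.05e-07). Usp18, a negative regulator that removes ISG15 and acts at the interferon receptor, was at 44.1, 82.7 and 119 CPM in dual and 18, 31 and 42.6 CPM in vehicle tumours (1.45 ± 0.21, adjusted p = 2.58e-05). The groups did not overlap for either gene. Ifnlr1, the interferon lambda receptor chain, rose by 1.87 ± 0.31. The 3 members that fell were the receptor chains Ifngr1 and Ifnar1 and the kinase gene Tyk2, by 0.60 ± 0.09, 0.24 ± 0.05 and 0.37 ± 0.06 on the log2 scale.

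Most antiviral effectors rose. Of 44 members 37 rose and 0 fell, the median change was 0.994, and 11 did not overlap. Rsad2, the gene of viperin, was at 61.9, 159 and 267 CPM in dual and 16.9, 32.2 and 43.1 CPM in vehicle tumours (2.23 ± 0.26, adjusted p = 1.96e-06). Ifitm3, which blocks virus entry, was at 638, 843 and 957 CPM in dual and 297, 379 and 533 CPM in vehicle tumours (1.07 ± 0.11, adjusted p = 4.14e-07). Bst2, the gene of tetherin, was at 168, 313 and 352.7 CPM in dual and 66.2, 110 and 164 CPM in vehicle tumours (1.44 ± 0.18, adjusted p = 3.69e-06). No dual tumour fell within the vehicle range for these 3 genes, and dual tumours D_344 and D_370 were the lowest of the dual tumours in the mean level of the list, at 0.376 and 0.428 log2 units above the vehicle mean, against 0.804 to 1.397 in the other 6. The highest vehicle tumour, C_361, was at 0.421. The interferon-inducible GTPases, which include the guanylate-binding proteins known as interferon gamma targets, had fewer calls: 3 of 19 rose, 1 fell and 15 were not called, with a median of 0.431. Irgm1 (0.84 ± 0.24), Gbp3 (0.85 ± 0.28) and Gbp10 (1.33 ± 0.49) were the members that rose, and all 3 calls were lost with the muscle score as a covariate. Without dual tumour D_370 the counts were 7 higher and 0 lower, and without D_344, C_339 or C_351 they were 5 and 0. Gbp genes share reads and are less certain.

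**Figure D2:**
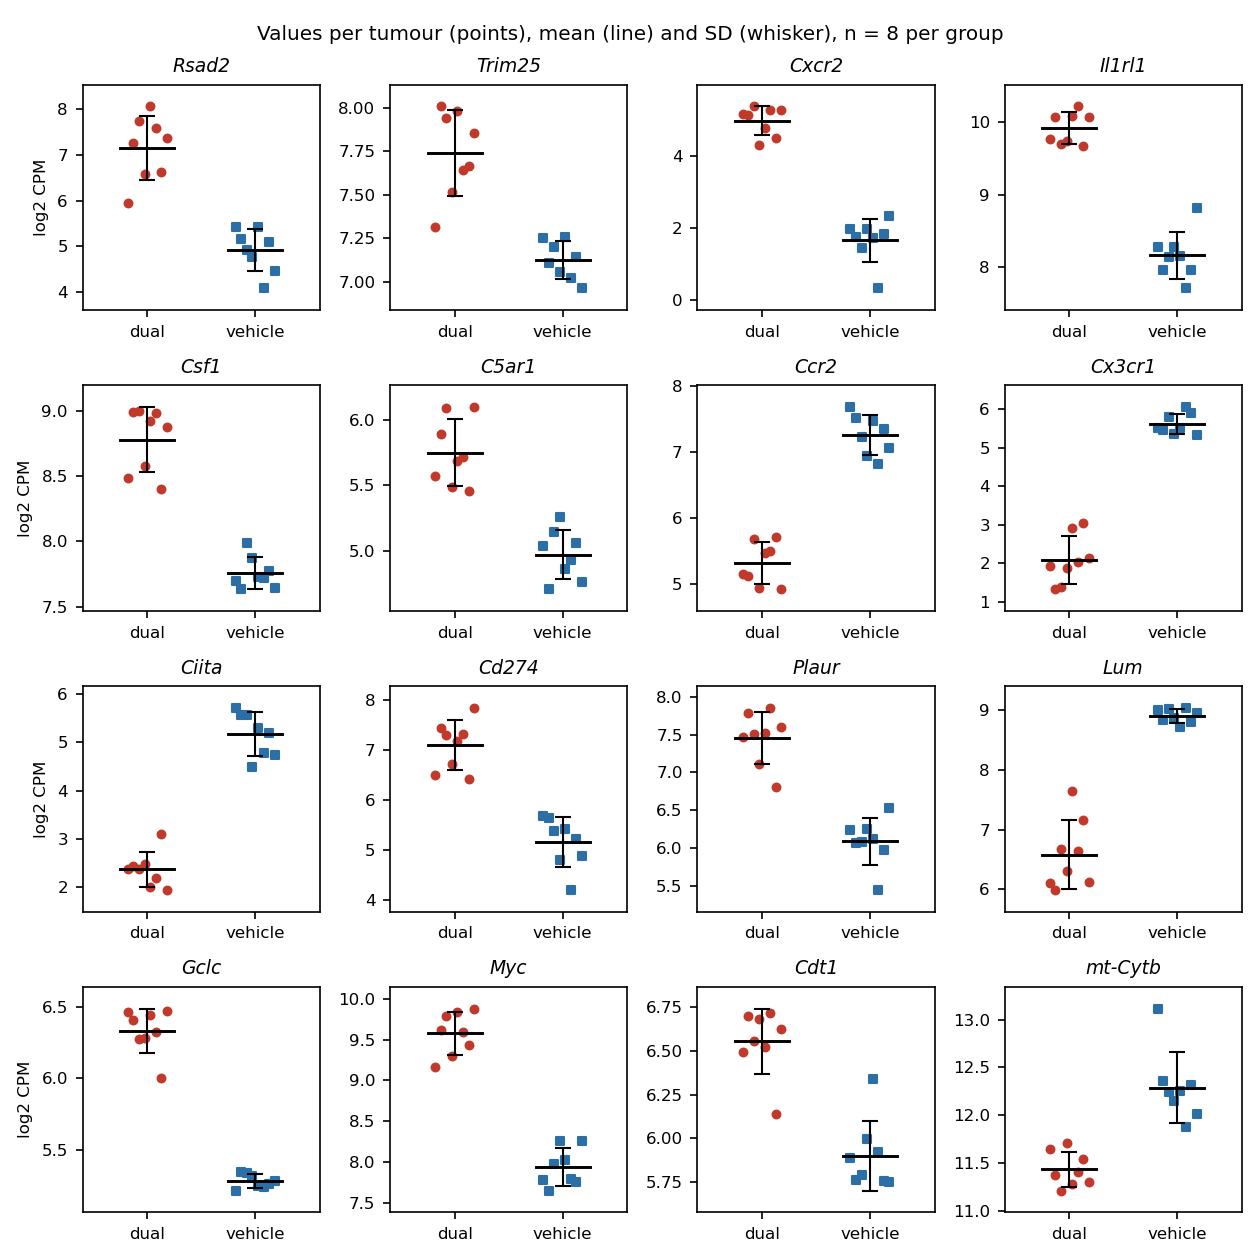
Expression of 16 genes in each tumour, as log2 CPM on an axis scaled for each gene, with the mean as a line and the SD as a whisker for 8 dual (circles, left) and 8 vehicle tumours (squares, right). The genes were chosen with earlier results of these data known. For 15 of the genes the groups do not overlap. For Cdt1 the lowest dual tumour, D_370, lies below the highest vehicle tumour, C_361.

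The promoters of 6 genes from the antiviral, chemokine and MHC class II lists are shown because these genes had the smallest p among the genes named from those lists that had an entry. They are RefSeq sequences of GRCm38.p6, from 250 bases before to 50 bases after the start of transcription, and 17 of 22 genes looked up had an entry. Capitals mark 3 motifs searched on both strands: GAAANNGAA, the core of the interferon-stimulated response element, GGGANNTTC, a form of the NF-kappaB site, and CCAAT. None of the marked matches overlap.
Ifitm3: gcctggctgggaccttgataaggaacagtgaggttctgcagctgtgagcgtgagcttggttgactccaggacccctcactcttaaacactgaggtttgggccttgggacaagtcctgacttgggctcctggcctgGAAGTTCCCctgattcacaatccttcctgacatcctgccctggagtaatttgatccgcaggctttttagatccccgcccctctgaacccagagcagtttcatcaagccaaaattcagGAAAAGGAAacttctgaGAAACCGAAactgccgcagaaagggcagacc
Ccl3: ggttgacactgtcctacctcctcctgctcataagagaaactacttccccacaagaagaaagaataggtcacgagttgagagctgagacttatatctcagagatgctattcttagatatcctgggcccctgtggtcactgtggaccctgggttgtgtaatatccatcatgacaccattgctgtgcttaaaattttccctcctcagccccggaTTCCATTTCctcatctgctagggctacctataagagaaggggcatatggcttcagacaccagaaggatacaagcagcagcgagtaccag
Cxcr2: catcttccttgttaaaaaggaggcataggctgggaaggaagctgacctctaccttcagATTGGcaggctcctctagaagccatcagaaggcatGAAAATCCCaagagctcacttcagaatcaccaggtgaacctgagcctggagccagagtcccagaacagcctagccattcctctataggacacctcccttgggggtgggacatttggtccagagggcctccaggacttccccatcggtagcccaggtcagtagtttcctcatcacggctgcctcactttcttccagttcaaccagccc
Ccr2: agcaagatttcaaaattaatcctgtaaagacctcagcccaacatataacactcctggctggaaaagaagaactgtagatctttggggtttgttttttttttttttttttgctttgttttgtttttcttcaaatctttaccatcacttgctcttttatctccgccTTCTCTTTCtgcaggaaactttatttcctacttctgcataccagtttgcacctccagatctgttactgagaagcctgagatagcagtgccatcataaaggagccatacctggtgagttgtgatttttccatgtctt
Cx3cr1: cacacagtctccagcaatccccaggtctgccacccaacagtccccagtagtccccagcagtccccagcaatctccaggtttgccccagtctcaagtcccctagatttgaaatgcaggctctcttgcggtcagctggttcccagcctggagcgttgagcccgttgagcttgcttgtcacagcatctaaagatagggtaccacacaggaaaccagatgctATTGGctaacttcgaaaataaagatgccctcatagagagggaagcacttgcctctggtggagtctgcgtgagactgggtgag
H2-DMa: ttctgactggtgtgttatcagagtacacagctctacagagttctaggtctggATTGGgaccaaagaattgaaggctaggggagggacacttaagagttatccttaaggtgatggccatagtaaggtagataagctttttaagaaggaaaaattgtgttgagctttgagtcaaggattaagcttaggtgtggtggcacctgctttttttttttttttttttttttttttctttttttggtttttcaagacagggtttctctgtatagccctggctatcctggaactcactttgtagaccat
The windows lie at chr7:141010695-141010994 (minus strand) for Ifitm3, chr11:83649329-83649628 (minus) for Ccl3 and chr1:74153744-74154043 (plus) for Cxcr2. Those of Ccr2, Cx3cr1 and H2-DMa lie at chr9:124101933-124102232 (plus), chr9:120068247-120068546 (minus) and chr17:34125268-34125567 (plus), and another H2-DMa start site held no match. Ifitm3 has GAAANNGAA at positions 3 and 20 after the start and GGGANNTTC at -115. The interferon motif also stands at -39 in Ccl3 and at -86 in Ccr2, and GGGANNTTC stands at -157 in Cxcr2. CCAAT stands at -192 in Cxcr2, at -32 in Cx3cr1 and at -198 in H2-DMa.

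The interferon motif occurred in 15 of 33 antiviral genes with a promoter entry (45.5%), against 9.76% of all 27025 genes with an entry. In the chemokine lists it occurred in 7 of 43 genes (16.3%), as did the NF-kappaB motif, which 4.47% of all genes held. CCAAT occurred in 10 of 10 MHC class II genes and in 41.1% of all genes. These are matches of letters and say nothing of binding. Ccr2, which fell, holds the same interferon motif as Ifitm3 and Ccl3, which rose.

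In the interleukin-1 family agonists, antagonists and the receptor gene Il1rl1 rose. Of 17 members 11 rose and 2 fell, with a median of 0.869, and 7 did not overlap. Among the ligands, Il1b was at 62.0, 135 and 234 CPM in dual and 17.4, 41.6 and 54.4 CPM in vehicle tumours (1.81 ± 0.26, adjusted p = 1.96e-05). Il36g, an interleukin-36 agonist, was at 4.25, 10.7 and 16.9 CPM in dual and 0, 0.662 and 1.27 CPM in vehicle tumours (4.30 ± 0.58, adjusted p = 1.05e-05). Il1a rose by 3.77 ± 0.51. The antagonists rose beside them. Il1rn, the receptor antagonist, was at 36.3, 170 and 239 CPM in dual and 8.32, 22.4 and 33.8 CPM in vehicle tumours (2.66 ± 0.32, adjusted p = 3.46e-06). Il1r2, the decoy receptor, was at 20.2, 36.6 and 42.1 CPM in dual and 3.87, 7.60 and 12.9 CPM in vehicle tumours (2.16 ± 0.19, adjusted p = 1.15e-07). Il18bp, which neutralises interleukin-18, rose by 1.33 ± 0.21. Il1rl1, the interleukin-33 receptor ST2, was at 815, 975 and 1200 CPM in dual and 209, 283 and 450 CPM in vehicle tumours (1.76 ± 0.12, adjusted p = 7.54e-09). All 5 genes given with ranges here separated the groups without overlap. The signalling receptor Il1r1 and the pore protein gene Gsdmd were the members that fell, by 0.45 ± 0.11 and 0.29 ± 0.10 on the log2 scale.

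Cytokines that make and recruit granulocytes rose, and so did the receptor for the granulocyte factor. The list of interleukin-6 family and colony-stimulating factors had 11 of 19 members higher and 4 lower. Csf3, the gene of G-CSF, was at 4.24, 10.8 and 26.6 CPM in dual and 0.116, 2.51 and 17.3 CPM in vehicle tumours (2.18 ± 0.66, adjusted p = 0.0124). Its receptor gene Csf3r was at 52.8, 68.1 and 96.8 CPM in dual and 15.3, 20.2 and 23.4 CPM in vehicle tumours (1.81 ± 0.12, adjusted p = 5.19e-09). The receptor separated the groups and the ligand did not. For the macrophage factor the pair went apart. Csf1 was at 338, 478 and 512 CPM in dual and 199, 211 and 254 CPM in vehicle tumours (1.03 ± 0.09, adjusted p = 1.15e-07), whereas Csf1r fell by 0.79 ± 0.12 on the log2 scale. Osm, the gene of oncostatin M, was at 6.84, 21.9 and 31.9 CPM in dual and 2.02, 3.01 and 6.4 CPM in vehicle tumours (2.51 ± 0.28). Il6, Il11, Lif and Csf2 rose by 1.67 ± 0.34, 1.4 ± 0.27, 1.16 ± 0.26 and 1.33 ± 0.51.

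TNF and NF-kappaB regulators had 16 of 30 members higher and 1 lower. Tnf itself was at 2.96, 6.37 and 8.58 CPM in dual and 1.73, 3.84 and 5.34 CPM in vehicle tumours (0.85 ± 0.24, adjusted p = 0.00776), and was not called with all 24 tumours in the fit (adjusted p = 0.0541). Inhibitors that the pathway induces also rose. Nfkbia, the gene of I-kappaB alpha, was at 139, 214 and 268 CPM in dual and 79.7, 123 and 137 CPM in vehicle tumours (0.82 ± 0.13), with no overlap, and Tnfaip3, the gene of A20, rose by 1.10 ± 0.19.

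All 8 measured genes of the list of CXCR2 and CXCR1 ligands and receptors rose, with a median of 3.06. The ligands draw neutrophils. The list also holds Pf4, a platelet chemokine of the same gene cluster that is not known as a CXCR2 ligand. The 5 ligand genes and Pf4 lie together on chromosome 5 of GRCm39, from Cxcl5 at 90907219 to Cxcl2 at 91053797. Cxcl3 was at 34.9, 84.1 and 103 CPM in dual and 0.347, 3.98 and 10.5 CPM in vehicle tumours (4.46 ± 0.47, adjusted p = 7.36e-07). Cxcl2 was at 42, 122 and 181 CPM in dual and 0.809, 8.68 and 17.1 CPM in vehicle tumours (3.98 ± 0.46, adjusted p = 1.99e-06). Cxcl5 was at 39.2, 56.8 and 80.8 CPM in dual and 5.26, 12.1 and 21.7 CPM in vehicle tumours (2.19 ± 0.23, adjusted p = 6.81e-07). For these 3 ligands the groups did not overlap, and vehicle tumour C_364 was the lowest of all 16. Cxcl1 overlapped, at 31.1, 91.7 and 133 CPM in dual and 5.49, 22.1 and 85.1 CPM in vehicle tumours (1.86 ± 0.41). The receptor Cxcr2 was at 19.6, 35.5 and 41.5 CPM in dual and 1.21, 3.41 and 4.93 CPM in vehicle tumours (3.32 ± 0.22, adjusted p = 5.19e-09). Ppbp and Pf4 are also platelet genes, and rose by 2.79 ± 0.36 and 1.11 ± 0.19. The erythroid and platelet markers, which include both, took 0.0103% to 0.0185% of reads in dual and 0.00408% to 0.0120% in vehicle tumours, and their part in these values was not tested.

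Among 3 ligands of CXCR3, the receptor of activated T cells and natural killer cells, 2 rose. Cxcl11 and Cxcl10 rose by 2.07 ± 0.42 and 1.42 ± 0.31. Cxcl9, a ligand known to depend on interferon gamma, was at 50.0, 174 and 261 CPM in dual and 39.9, 113 and 208 CPM in vehicle tumours, with a change of 0.50 ± 0.37 that was not called (adjusted p = 0.29). Cxcr3 changed by 0.01 ± 0.29 and was not called.

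The CC chemokines had 15 of 32 members higher and 4 lower, or 2 lower without dual tumour D_373. Ccl5, also called RANTES, was at 61.1, 212 and 273 CPM in dual and 6.44, 13.5 and 16.9 CPM in vehicle tumours (3.76 ± 0.30, adjusted p = 4.15e-08). Ccl3 was at 13.9, 39.9 and 53.1 CPM in dual and 1.44, 3.60 and 5.82 CPM in vehicle tumours (3.11 ± 0.29, adjusted p = 2.31e-07). Ccr1, a receptor for both, rose by 0.53 ± 0.13. The monocyte axis moved in opposite directions. Ccl2 was at 356.9, 512 and 610 CPM in dual and 134, 281 and 341 CPM in vehicle tumours (0.92 ± 0.16, adjusted p = 0.000126). Ccl7 was at 91.2, 127 and 172 CPM in dual and 37.6, 54.2 and 68.8 CPM in vehicle tumours (1.24 ± 0.15, adjusted p = 4.56e-06). Their receptor Ccr2 fell to 30.4, 39.95 and 52.5 CPM in dual, against 113, 156 and 204 CPM in vehicle tumours (-1.94 ± 0.14, adjusted p = 7.54e-09). None of the 3 overlapped between the groups, the ligands being above and the receptor below the vehicle range in every dual tumour.

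Of 11 other CXC, C and CX3C chemokines and receptors 4 rose and 5 fell, or 3 fell without D_357, C_339, C_351, C_356, C_361 or C_369. Cx3cr1 encodes the fractalkine receptor of patrolling monocytes and resident macrophages. Among the more highly expressed genes, predicted genes and antigen receptor segments aside, Cx3cr1 had the largest decrease. It was at 2.48, 3.92 and 8.26 CPM in dual and 39.9, 45.8 and 66.5 CPM in vehicle tumours (-3.54 ± 0.21, adjusted p = 3.77e-09). Its ligand gene Cx3cl1 fell by 0.61 ± 0.12 on the log2 scale. Xcr1, the receptor of cross-presenting dendritic cells, was at 0, 0.216 and 0.801 CPM in dual and 0.867, 1.39 and 2.16 CPM in vehicle tumours (-3.08 ± 0.56, adjusted p = 0.000236). The groups did not overlap for either receptor. Cxcl12, Cxcl13 and Cxcl14, which are made by stromal and lymphoid cells, rose by 1.37 ± 0.35, 2.26 ± 0.66 and 1.88 ± 0.41.

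The complement anaphylatoxin receptors, one of which was the target in the third arm of the study, were read here without that blocker. C5ar1 was at 43.9, 52.0 and 68.4 CPM in dual and 26.2, 31.7 and 38.2 CPM in vehicle tumours (0.78 ± 0.10, adjusted p = 8.9e-06), with no overlap. C3ar1 was at 84.9, 97.3 and 130 CPM in dual and 63.3, 75.0 and 85.4 CPM in vehicle tumours (0.42 ± 0.10, adjusted p = 0.00172), and was not called with all 24 tumours in the fit (adjusted p = 0.228). C5ar2, the second C5a receptor, changed by 0.03 ± 0.14 and was not called.

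Of 28 complement components and regulators 8 rose and 8 fell. Cfb, factor B of the alternative pathway, was at 5.53, 11.4 and 15.5 CPM in dual and 1.13, 1.54 and 2.85 CPM in vehicle tumours (2.44 ± 0.25, adjusted p = 5.33e-07). C2, its counterpart in the classical pathway, was at 3.57, 8.4 and 17 CPM in dual and 1.44, 2.12 and 3.31 CPM in vehicle tumours (1.85 ± 0.26). C3, the central component, rose by 1.38 ± 0.28, and the C1 inhibitor gene Serping1 by 1.95 ± 0.37. The genes that fell included the 3 chains of C1q, C1qa, C1qb and C1qc, by 0.42 ± 0.09, 0.50 ± 0.10 and 0.36 ± 0.08 on the log2 scale. The regulator Cd46 fell by 1.43 ± 0.20, and the complement receptor Vsig4 of resident macrophages by 2.47 ± 0.53. Hc, the gene of C5, changed by 0.63 ± 0.42 and was not called.

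**Figure D3:**
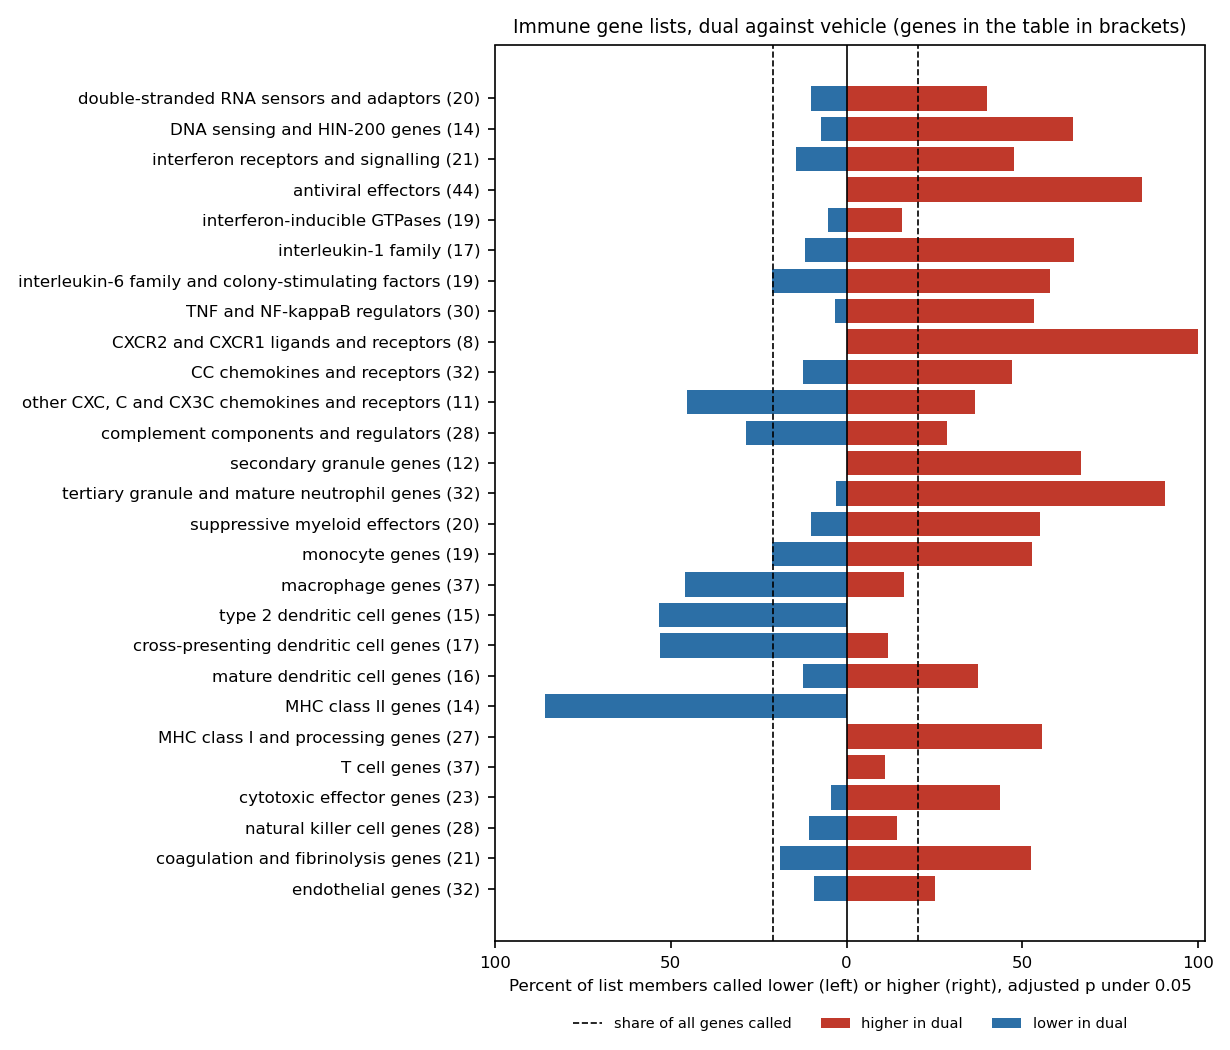
Percent of the members of 27 immune and vessel gene lists called higher (right) and lower (left) in dual against vehicle tumours, with the number of genes in brackets and dashed lines at the 20.3% and 21.0% of all genes called. The CXCR2, mature neutrophil and antiviral lists reach farthest to the right, at 100%, 90.6% and 84.1%, and the MHC class II list farthest to the left, at 85.7%.

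Neutrophil genes were grouped by when in maturation they are made, and differences between these groups were not tested. Of 5 genes of primary granules and early maturation only Prtn3 rose, a call lost with the muscle covariate (adjusted p = 0.0769), and 4 further genes of that list, Mpo and Elane among them, were not analysed here. Of 12 secondary granule genes 8 rose and 0 fell, with a median of 1.67. Of 32 tertiary granule and mature neutrophil genes 29 rose and 1 fell, with a median of 2.43, and 22 did not overlap. Lcn2, the siderophore-binding lipocalin of secondary granules, was at 36.2, 46.6 and 90.7 CPM in dual and 0.751, 2.57 and 4.87 CPM in vehicle tumours (4.27 ± 0.29, adjusted p = 5.19e-09). Mmp8, neutrophil collagenase, was at 14.5, 19.8 and 40.03 CPM in dual and 0.793, 2.02 and 3.09 CPM in vehicle tumours (3.59 ± 0.26). S100a8, one chain of calprotectin, was at 128, 197 and 285 CPM in dual and 2.89, 8.17 and 25.5 CPM in vehicle tumours (4.41 ± 0.30). None of the 3 overlapped. Hdc, the enzyme that makes histamine, was at 41.6, 72.0 and 95.5 CPM in dual and 10.8, 13.2 and 16.9 CPM in vehicle tumours (2.39 ± 0.15). Hcar2, a receptor for hydroxycarboxylic acids, and Acod1, which makes itaconate, rose by 3.50 ± 0.36 and 3.10 ± 0.32. Not every neutrophil gene followed: Mmp9, gelatinase B, changed by -0.00 ± 0.28 and Padi4, needed for extracellular traps, by 0.22 ± 0.28, and neither was called. Siglecf, a lectin of eosinophils and of a tumour neutrophil subset in mouse, fell by 1.04 ± 0.37 on the log2 scale. Another 4 of the 20 largest increases are known from myeloid and inflamed tissue. Clec4d and Clec4e among them are already counted in the mature neutrophil list. Slpi, a protease inhibitor, was at 27.8, 47.4 and 70.9 CPM in dual and 0.867, 3.60 and 6.06 CPM in vehicle tumours (3.75 ± 0.30, adjusted p = 3.34e-08). Saa3, an acute phase protein, was at 165, 235 and 359.6 CPM in dual and 8.49, 29.6 and 83.5 CPM in vehicle tumours (3.18 ± 0.38). The lectin receptors Clec4d and Clec4e rose by 2.50 ± 0.20 and 2.52 ± 0.27, and none of the 4 overlapped between groups. The mean level of the mature neutrophil list was 1.729 to 2.669 log2 units above the vehicle mean in dual tumours and -0.881 to 0.388 in vehicle tumours, with dual tumour D_366 and vehicle tumour C_364 lowest in their groups.

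Among 20 enzymes and mediators known from myeloid cells that restrain T cells, 11 rose and 2 fell. Which cells made these transcripts was not tested. Arg2, a mitochondrial arginase, was at 9.03, 13.3 and 17.6 CPM in dual and 0.231, 1.07 and 1.61 CPM in vehicle tumours (3.76 ± 0.28, adjusted p = 1.55e-08). Arg1, the cytosolic arginase, was at 98.9, 126 and 162 CPM in dual and 7.40, 33.4 and 64.8 CPM in vehicle tumours (2.13 ± 0.32). Nos2, inducible nitric oxide synthase, was at 50.6, 146 and 197 CPM in dual and 7.28, 25.9 and 33.8 CPM in vehicle tumours (2.55 ± 0.31). Both arginases and Nos2 separated the groups fully. Ptgs2, the gene of cyclooxygenase 2, was at 440, 518 and 962 CPM in dual and 24.2, 66.8 and 199 CPM in vehicle tumours (3.10 ± 0.30, adjusted p = 2.81e-07). Hmox1, haem oxygenase 1, was at 308, 752 and 1080 CPM in dual and 58.5, 105 and 196 CPM in vehicle tumours (2.76 ± 0.26). Alox5, the first enzyme of leukotriene synthesis, fell by 1.32 ± 0.21 on the log2 scale.

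Monocyte and macrophage genes moved in both directions. In the monocyte list 10 of 19 rose and 4 fell. Cd14, the lipopolysaccharide co-receptor, was at 47.7, 85.7 and 98.4 CPM in dual and 26.3, 33.4 and 43.3 CPM in vehicle tumours (1.27 ± 0.13, adjusted p = 5.37e-07). Ly6c2 and Plac8 of inflammatory monocytes rose by 2.14 ± 0.32 and 1.61 ± 0.31, while Ccr2 fell as above. In the macrophage list 6 of 37 rose and 17 fell, with a median of -0.407. The scavenger receptor Marco was at 2.56, 7.00 and 17.5 CPM in dual and 0.200, 0.971 and 1.46 CPM in vehicle tumours (3.10 ± 0.39). Selenop, the selenoprotein of resident macrophages, was at 66.5, 90.9 and 196 CPM in dual and 168, 246 and 281 CPM in vehicle tumours (-1.31 ± 0.17). Marco separated the groups, and for Selenop the highest dual tumour met the lowest vehicle tumour. Retnla, Cbr2 and Mrc1, which mark macrophages of resting or alternatively activated tissue, fell by 4.02 ± 0.82, 1.95 ± 0.33 and 0.47 ± 0.18 on the log2 scale. Other genes known from alternative activation did not follow: Arg1 rose, and Chil3 changed by 0.54 ± 0.46 and was not called. Trem2 and Apoe, known from lipid-laden tumour macrophages, fell by 0.98 ± 0.14 and 0.82 ± 0.16. Fcrls, a scavenger receptor of mouse tissue macrophages, was at 2.35, 5.41 and 20.5 CPM in dual and 19.9, 36.2 and 78.1 CPM in vehicle tumours (-2.76 ± 0.38, adjusted p = 1.38e-05). The pan-macrophage marker Adgre1 was at 54.5, 71.0 and 92.3 CPM in dual and 57.7, 80.3 and 94.3 CPM in vehicle tumours. The changes of Adgre1 and of Mertk (0.14 ± 0.14 for Mertk) were not called. Cd68, also a macrophage marker, rose by 0.642, and every dual tumour was above every vehicle tumour. The other members of the macrophage list that rose were Fcgr1, Siglec1, Msr1 and Axl, by 0.725, 0.6771, 0.358 and 0.233.

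Many listed genes of both conventional dendritic cell subsets fell, and others were not called. In the list of type 2 dendritic cells 0 of 15 rose and 8 fell. The other 7, among them Sirpa, Itgax, Klf4 and Ccl22, were not called. Mgl2 and Clec10a, which fell, are counted in the macrophage list too. Cd209a, the mouse homologue of DC-SIGN, was at 0, 0.0640 and 0.370 CPM in dual and 0.267, 1.61 and 2.47 CPM in vehicle tumours (-3.82 ± 0.51, adjusted p = 9.88e-06). Mgl2, a galactose-binding lectin, was at 0.381, 2.15 and 5.12 CPM in dual and 4.13, 13.4 and 25.7 CPM in vehicle tumours (-2.63 ± 0.44). Ccl17, a chemokine of these cells, fell by 2.82 ± 0.54 on the log2 scale. In the list of cross-presenting dendritic cells 9 of 17 fell and 2 rose. Clec9a, their receptor for dead cells, was at 0.490, 0.517 and 0.848 CPM in dual and 1.55, 2.64 and 3.27 CPM in vehicle tumours (-2.01 ± 0.19, adjusted p = 3.07e-07). The lineage factors Batf3 and Irf8 changed by -0.19 ± 0.21 and -0.01 ± 0.15, and the growth factor receptor Flt3 by -0.37 ± 0.22, and none was called. In the maturation list 6 of 16 rose and 2 fell. Il15 and its presenting chain Il15ra rose by 1.04 ± 0.18 and 0.79 ± 0.19, and the costimulator Cd80 by 0.97 ± 0.20, while Cd83 was at 5.15, 9.35 and 15.4 CPM in dual and 14.3, 20.3 and 27.1 CPM in vehicle tumours (-1.14 ± 0.18).

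MHC class II genes fell together with their master regulator. Of 14 genes 12 fell and 0 rose, the median was -1.5, and 10 did not overlap. Ciita, the transactivator, was at 3.81, 5.15 and 8.56 CPM in dual and 22.4, 37.9 and 52.4 CPM in vehicle tumours (-2.80 ± 0.18, adjusted p = 5.19e-09). H2-Ab1, a class II beta chain, was at 108, 154 and 219 CPM in dual and 338, 532 and 930 CPM in vehicle tumours (-1.77 ± 0.18, adjusted p = 3.91e-07). H2-DMa, which loads peptide, was at 13, 14.7 and 18.4 CPM in dual and 29.7, 46.8 and 64.2 CPM in vehicle tumours (-1.53 ± 0.14). In each of these the highest dual tumour was below the lowest vehicle tumour, dual tumour D_370 being the highest for Ciita. The 3 promoter-binding RFX subunits had changes nearer to 0: Rfx5 and Rfxank fell by 0.32 ± 0.09 and 0.56 ± 0.08, and Rfxap changed by -0.07 ± 0.07 and was not called. MHC class I and processing genes had 15 of 27 higher and 0 lower, with a median of 0.274. H2-Q10 was at 2.60, 4.36 and 5.64 CPM in dual and 0.467, 0.833 and 1.64 CPM in vehicle tumours (2.21 ± 0.23, adjusted p = 6.19e-07). Nlrc5, the class I transactivator, changed by 0.11 ± 0.16 and was not called. H2 genes share reads and are less certain.

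Both PD-1 ligands rose and PD-1 did not pass the test. Cd274, the gene of PD-L1, was at 85.6, 152 and 230 CPM in dual and 18.4, 39.5 and 51.5 CPM in vehicle tumours (1.94 ± 0.22, adjusted p = 1.39e-06). Pdcd1lg2, the gene of PD-L2, was at 1.73, 4.07 and 7.36 CPM in dual and 0.867, 1.33 and 2.24 CPM in vehicle tumours (1.46 ± 0.29, adjusted p = 0.000481). Pdcd1 was at 3.20, 4.41 and 8.50 CPM in dual and 1.5, 4.70 and 8.55 CPM in vehicle tumours (0.16 ± 0.30, adjusted p = 0.688). Only PD-L1 separated the groups among the 3. Of 32 other checkpoint genes 13 rose and 4 fell. Pvr, a ligand of TIGIT, and Lgals9, a ligand of TIM-3, rose by 0.80 ± 0.11 and 0.63 ± 0.10. Tigit and Lag3 rose by 1.13 ± 0.27 and 1.02 ± 0.26, and Btla and Vsir fell by 1.19 ± 0.24 and 0.40 ± 0.09.

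Of 37 T cell genes 4 rose and 0 fell. Their median of 0.074 was negative without C_358, C_375 or D_357, at -0.031, -0.063 and -0.05. Cd8a was at 3.12, 6.97 and 12.1 CPM in dual and 2.31, 5.13 and 10.8 CPM in vehicle tumours (0.37 ± 0.32, adjusted p = 0.361). Cd3e changed by -0.06 ± 0.24. Il7r, the interleukin-7 receptor, had the largest rise of the list, at 11.8, 23.8 and 33.8 CPM in dual and 4.67, 6.53 and 10.0 CPM in vehicle tumours (1.81 ± 0.21, adjusted p = 2.46e-06). Trdc, Thy1 and Cd44 rose by 1.31, 0.74 and 0.42, while the receptor genes Trac, Trbc1 and Trbc2 were not called. The Thy1 call was lost with all 24 tumours in the fit, with the muscle covariate and with the exact Wilcoxon test. Cytotoxic effectors had 10 of 23 higher and 1 lower, with a median of 0.856. Gzmb, the gene of granzyme B, was at 12.3, 29.7 and 35.8 CPM in dual and 4.45, 9.48 and 15.5 CPM in vehicle tumours (1.47 ± 0.26, adjusted p = 0.000173). Srgn, the granule proteoglycan, and Slamf7 rose by 1.5 ± 0.15 and 1.66 ± 0.24 without overlap, and both are also expressed by myeloid cells. Natural killer cell genes had 4 of 28 higher and 3 lower, with a median of -0.010 that was positive or 0 without any 1 of 12 tumours. Of 16 B and plasma cell genes 3 rose and 3 fell, with a median of -0.718. Ighm, the heavy chain of immunoglobulin M, was at 4.13, 8.51 and 10.7 CPM in dual and 18.7, 38.7 and 46 CPM in vehicle tumours (-2.13 ± 0.19, adjusted p = 1.59e-07), and Ighd and Jchain also fell. Pax5, a B cell transcription factor, rose by 2.03 ± 0.38 (adjusted p = 0.000314), as did Cd22 and Sdc1, and Ms4a1 was not analysed here. Mast cell, basophil and eosinophil genes had 7 of 15 lower and 2 higher, but 3 lower without C_364 or D_366 and 4 without C_356, C_369 or D_367.

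**Figure D4:**
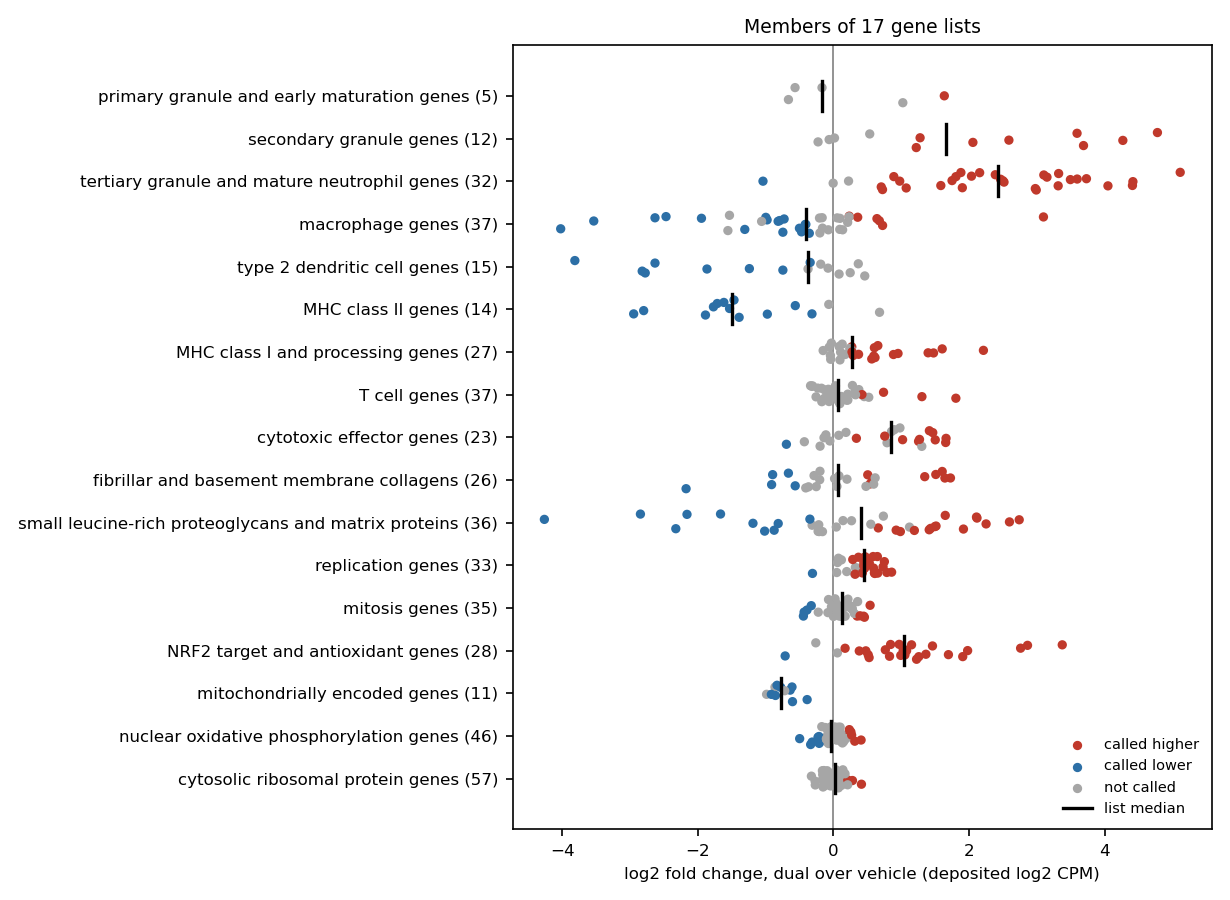
Log2 fold changes, dual over vehicle, of the members of 17 gene lists (points), coloured by call, with the list median as a bar and the number of genes in brackets. Secondary and mature neutrophil genes reach beyond 4, MHC class II genes lie almost wholly below 0, and T cell, ribosomal and nuclear oxidative phosphorylation genes cluster at 0.

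Most endothelial genes were not called. Of 32 endothelial genes 8 rose and 3 fell, or 1 fell without C_339, C_364 or D_367. Pecam1, the CD31 gene, was at 39.5, 62.8 and 101 CPM in dual and 43.4, 57.0 and 74.1 CPM in vehicle tumours (0.11 ± 0.15, adjusted p = 0.582). Of 20 leukocyte adhesion molecules and selectins 8 rose and 3 fell, with a median of 0.157, or 5 and 1 with all 24 tumours in the fit. Vcam1, which holds leukocytes on endothelium, was at 352.8, 452 and 487 CPM in dual and 223, 251 and 302 CPM in vehicle tumours (0.75 ± 0.08, adjusted p = 5.36e-07), with no overlap. The selectin genes Selp and Sele rose by 0.98 ± 0.25 and 0.96 ± 0.25, while the integrin gene Itga4 fell by 0.91 ± 0.16 on the log2 scale. Vegfa was at 116, 147 and 172 CPM in dual and 33.9, 86.6 and 118 CPM in vehicle tumours (0.96 ± 0.18).

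Of 21 coagulation and fibrinolysis genes 11 rose and 4 fell. Serpinb2, plasminogen activator inhibitor 2, was at 18.2, 67.0 and 96.5 CPM in dual and 1.44, 9.69 and 43.4 CPM in vehicle tumours (2.60 ± 0.56, adjusted p = 0.00106). Plaur, the urokinase receptor, was at 112, 182 and 231 CPM in dual and 43.8, 68.9 and 92.9 CPM in vehicle tumours (1.36 ± 0.14). The groups overlapped for Serpinb2 and not for Plaur. Procr, the protein C receptor, rose by 1.30 ± 0.17 while Proc fell by 2.0 ± 0.47 on the log2 scale, and F10 and F7 rose by 1.70 ± 0.22 and 1.41 ± 0.28 while F8 fell by 1.45 ± 0.29.

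Matrix genes moved in both directions. Among 36 small leucine-rich proteoglycans and matrix proteins 15 rose and 10 fell. Lum, lumican, was at 63.7, 89.6 and 202 CPM in dual and 420, 485 and 528 CPM in vehicle tumours (-2.33 ± 0.18, adjusted p = 2.57e-08). Dpt, dermatopontin, was at 31.2, 46.5 and 140 CPM in dual and 166, 256 and 343.8 CPM in vehicle tumours (-2.16 ± 0.27). Aspn, asporin, was at 2.67, 7.22 and 59.5 CPM in dual and 39.8, 86.4 and 104 CPM in vehicle tumours (-2.85 ± 0.49). Lum and Dpt separated the groups, and Aspn did not. Other matrix genes rose. Thbs1, thrombospondin 1, was at 299, 559 and 661 CPM in dual and 59.7, 103 and 179 CPM in vehicle tumours (2.25 ± 0.20, adjusted p = 1.29e-07). Tnc, tenascin C, rose by 2.12 ± 0.31 and Ltbp1, which holds latent TGF-beta in the matrix, by 1.19 ± 0.10. Fn1 fell by 1.19 ± 0.26 on the log2 scale. The fibroblast identity list had 11 of 26 higher and 5 lower, with a median of 0.282, or 6 and 3 with all 24 tumours in the fit. Ly6a, Ly6c1 and Twist2 of that list rose by 1.03 ± 0.13, 0.88 ± 0.11 and 0.81 ± 0.10 without overlap. Other genes among the 20 largest decreases are known from fibroblasts and mesenchyme: Islr, Osr2, Ptn, Scara5 and Cdon fell by 2.16 ± 0.39, 1.98 ± 0.28, 1.83 ± 0.28, 1.76 ± 0.27 and 1.76 ± 0.22. Edil3, a matrix protein of vessels, was at 4.76, 8.07 and 23.2 CPM in dual and 28.5, 32 and 44.1 CPM in vehicle tumours (-1.91 ± 0.24) and did not overlap.

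Collagens had 8 of 26 higher and 5 lower, with a median of 0.067 that turned negative without D_373, D_359 or C_361, at -0.17, -0.016 and -0.083. Col8a1, a short-chain collagen of vessels, was at 66.6, 84.4 and 118 CPM in dual and 24.1, 37.8 and 45.8 CPM in vehicle tumours (1.35 ± 0.14, adjusted p = 9.24e-07). Col1a1 was at 279, 608 and 4084 CPM in dual and 97.4, 289 and 536 CPM in vehicle tumours (1.51 ± 0.46, adjusted p = 0.0124). The top Col1a1 value was dual tumour D_373, without which the change was 1.15 (adjusted p = 0.0173), and the call was lost with all 24 tumours (adjusted p = 0.0608), with the muscle covariate (adjusted p = 0.0633) and with the exact Wilcoxon test (adjusted p = 0.0515). Col4a5, a basement membrane chain, was at 5.90, 8.64 and 40.05 CPM in dual and 26.2, 53.7 and 75.5 CPM in vehicle tumours (-2.17 ± 0.33). Col3a1, Col6a1 and Col6a2 fell by 0.66 ± 0.17, 0.90 ± 0.20 and 0.91 ± 0.23. The list's mean level in dual tumour D_373 was 1.224 log2 units above the vehicle mean, against -0.478 to 0.433 in the other dual tumours.

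In the TGF-beta family, activin and its binding proteins rose, with 15 of 34 members higher and 7 lower. Inhba, the activin A subunit, was at 8.07, 20.1 and 30.2 CPM in dual and 1.59, 3.22 and 5.51 CPM in vehicle tumours (2.48 ± 0.27, adjusted p = 1.35e-06). Fstl3, an activin-binding protein, was at 30.6, 41.8 and 46.7 CPM in dual and 9.53, 15.3 and 21.3 CPM in vehicle tumours (1.35 ± 0.13), and follistatin, Fst, rose by 2.38 ± 0.31. Inhba and Fstl3 did not overlap. Tgfb1 changed by -0.03 ± 0.08 and was not called, while Tgfb3 and the receptor Tgfbr1 fell by 1.36 ± 0.18 and 0.68 ± 0.09. The epithelial and mesenchymal factors had 7 of 23 higher and 4 lower, or 7 lower without D_370 and 2 without D_359. Their median of 0.013 was negative, at -0.05 to -0.003, without C_339, C_351, D_357, D_359, D_366 or D_370. Among them Hmga2 was at 778, 815 and 894 CPM in dual and 323, 437 and 647 CPM in vehicle tumours (0.93 ± 0.10), and Snai2 rose by 0.60 ± 0.08, while Cdh1, the E-cadherin gene, fell by 1.49 ± 0.23 on the log2 scale. Mmp13, collagenase 3, was at 119, 162 and 255 CPM in dual and 29.6, 47.2 and 82.2 CPM in vehicle tumours (1.64 ± 0.18).

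Most oxidative stress genes rose. Of 28 NRF2 targets and antioxidant genes 25 rose and 1 fell, the median was 1.04, and 18 did not overlap. Gclc, which starts glutathione synthesis, was at 64.2, 82.4 and 88.6 CPM in dual and 37.1, 38.6 and 40.7 CPM in vehicle tumours (1.05 ± 0.06, adjusted p = 3.77e-09). Txnrd1, thioredoxin reductase, was at 460, 598 and 766 CPM in dual and 208, 225 and 241 CPM in vehicle tumours (1.46 ± 0.08, adjusted p = 3.77e-09). Fth1, ferritin heavy chain, was at 3910, 5283 and 6502 CPM in dual and 1784, 2008 and 2283 CPM in vehicle tumours (1.36 ± 0.09). The vehicle tumours lay within narrow ranges for all 3 and the lowest dual tumour was above them. The cystine transporter Slc7a11 and its partner chain Slc3a2 rose by 3.38 ± 0.24 and 1.23 ± 0.09. The messages of the pathway's own factor and its inhibitor moved little: Nfe2l2 rose by 0.17 ± 0.06 and Keap1 changed by 0.06 ± 0.05 and was not called. Dual tumour D_370 had the lowest mean level of the list in the dual group, 0.615 log2 units above the vehicle mean, against 0.08 for the highest vehicle tumour.

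Of 33 genes of the integrated and endoplasmic reticulum stress responses 19 rose and 3 fell. Asns, asparagine synthetase, a target of ATF4, was at 110, 228 and 253 CPM in dual and 57.3, 64.8 and 84.7 CPM in vehicle tumours (1.62 ± 0.13, adjusted p = 5.35e-08). Atf4 was at 315, 449 and 489 CPM in dual and 232, 252 and 299 CPM in vehicle tumours (0.75 ± 0.08). The groups did not overlap for either gene. The ATF4 targets Ddit3 and Trib3 rose by 0.93 ± 0.11 and 1.27 ± 0.21, whereas Xbp1 of the unfolded protein response changed by -0.13 ± 0.08 and was not called and the sensor kinase gene Eif2ak3 fell by 0.47 ± 0.08 on the log2 scale. Heat shock chaperones had 20 of 24 higher and constitutive proteasome genes 19 of 31, with 0 lower in either. Myc was at 573, 779 and 943 CPM in dual and 200, 236 and 306 CPM in vehicle tumours (1.64 ± 0.11, adjusted p = 5.19e-09), and Fosl1, a subunit of AP-1, rose by 1.4 ± 0.13 without overlap.

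Most replication genes rose. Of 33 replication genes 24 rose and 1 fell, with a median of 0.456. Cdt1, which loads the replicative helicase, was at 70.4, 96.4 and 105 CPM in dual and 53.7, 57.3 and 81.1 CPM in vehicle tumours (0.65 ± 0.09, adjusted p = 1.46e-05). Mcm6, a helicase subunit, was at 218, 282 and 330 CPM in dual and 162, 216 and 235 CPM in vehicle tumours (0.47 ± 0.09). Of 35 mitosis genes 5 rose and 4 fell. Ccnb2, cyclin B2, was at 47.2, 59.2 and 79.1 CPM in dual and 61.6, 85.1 and 89.0 CPM in vehicle tumours (-0.43 ± 0.10). The Ccnb2 call was lost with all 24 tumours in the fit (adjusted p = 0.0782). Mki67, the Ki-67 gene, was at 154, 186 and 260 CPM in dual and 121, 199 and 250 CPM in vehicle tumours (0.04 ± 0.14, adjusted p = 0.844). The groups overlapped for all of these. The mitosis count depended on dual tumour D_370 and on the processing. Without dual tumour D_370, 13 rose and 4 fell, with median centring 9 and 4, and with all 24 tumours in the fit 0 and 1. Dual tumour D_370 was at -0.248 log2 units from the vehicle mean in the level of the replication list, against 0.243 to 0.632 in the other dual tumours.

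Among regulators of cell death, Bcl2l1, the gene of the survival protein BCL-XL, was at 154, 178 and 194 CPM in dual and 74.8, 92.0 and 124 CPM in vehicle tumours (0.91 ± 0.09, adjusted p = 2.36e-07), with no overlap. Bmf, a proapoptotic BH3-only gene, was at 4.06, 9.57 and 46.9 CPM in dual and 36.4, 50.2 and 63.7 CPM in vehicle tumours (-2.16 ± 0.34). Mlkl, the executioner of necroptosis, was at 74.5, 121 and 138 CPM in dual and 51.2, 65.0 and 72.7 CPM in vehicle tumours (0.83 ± 0.11), and Ninj1, which ruptures the dying cell's membrane, rose by 0.67 ± 0.09. In the BCL2 family list 4 of 17 rose and 5 fell, and in the lytic death list 6 of 18 rose and 5 fell.

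Most of the hypoxia and glycolysis list rose and most mitochondrially encoded genes fell. Of 41 table entries for hypoxia and glycolysis genes, 2 of them for Aldoa, 25 rose and 8 fell. Slc2a3, the glucose transporter GLUT3, was at 16.3, 26.3 and 30.3 CPM in dual and 5.66, 7.01 and 8.80 CPM in vehicle tumours (1.82 ± 0.12, adjusted p = 5.19e-09). Pkm, pyruvate kinase, was at 2983, 3085 and 3274 CPM in dual and 1759, 2014 and 2465 CPM in vehicle tumours (0.61 ± 0.07). Neither gene overlapped between groups. Genes encoded by the mitochondrial genome fell, 8 of 11, with a median of -0.777, whereas 6 of 46 nuclear oxidative phosphorylation genes rose and 6 fell, with a median of -0.032. Without C_339 the nuclear counts were 8 and 4, and without D_357 they were 5 and 3. The gene mt-Cytb was at 2372, 2677 and 3348 CPM in dual and 3757, 4863 and 8873 CPM in vehicle tumours (-0.86 ± 0.13, adjusted p = 5e-05), the highest value being vehicle tumour C_339. Cytosolic ribosomal protein genes had 4 of 57 higher and 0 lower, a count that became 1 higher and 7 lower after quantile normalization and 2 to 7 higher when single tumours were left out. Fatty acid synthesis and storage genes had 11 of 21 higher and 3 lower, or 7 and 2 with all 24 tumours in the fit and 10 and 5 after quantile normalization. The lipid droplet gene Plin2 was at 262, 338 and 465.7 CPM in dual and 123, 137 and 187 CPM in vehicle tumours (1.18 ± 0.11). Dgat2, which makes triglyceride, rose by 1.89 ± 0.20, while Lpin1 fell by 0.77 ± 0.14 on the log2 scale. The adipocyte markers given above had 3 of 9 called higher and 0 lower, and their part in these values was not tested. The call of the adipocyte marker Plin4 was lost with all 24 tumours in the fit (adjusted p = 0.112).

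Set side by side, the lists did not rank the tumours in the same way. Dual tumour D_366 was lowest in the dual group for the CXCR2 list, at 1.842 log2 units above the vehicle mean, and lowest for MHC class II, at -1.655. Dual tumour D_370 was highest for MHC class II, at -1.027, and lowest for NRF2 and replication. Vehicle tumour C_364 was the lowest of the vehicle tumours for the antiviral, mature neutrophil and CXCR2 lists, at -0.609, -0.881 and -1.71.

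**Figure D5:**
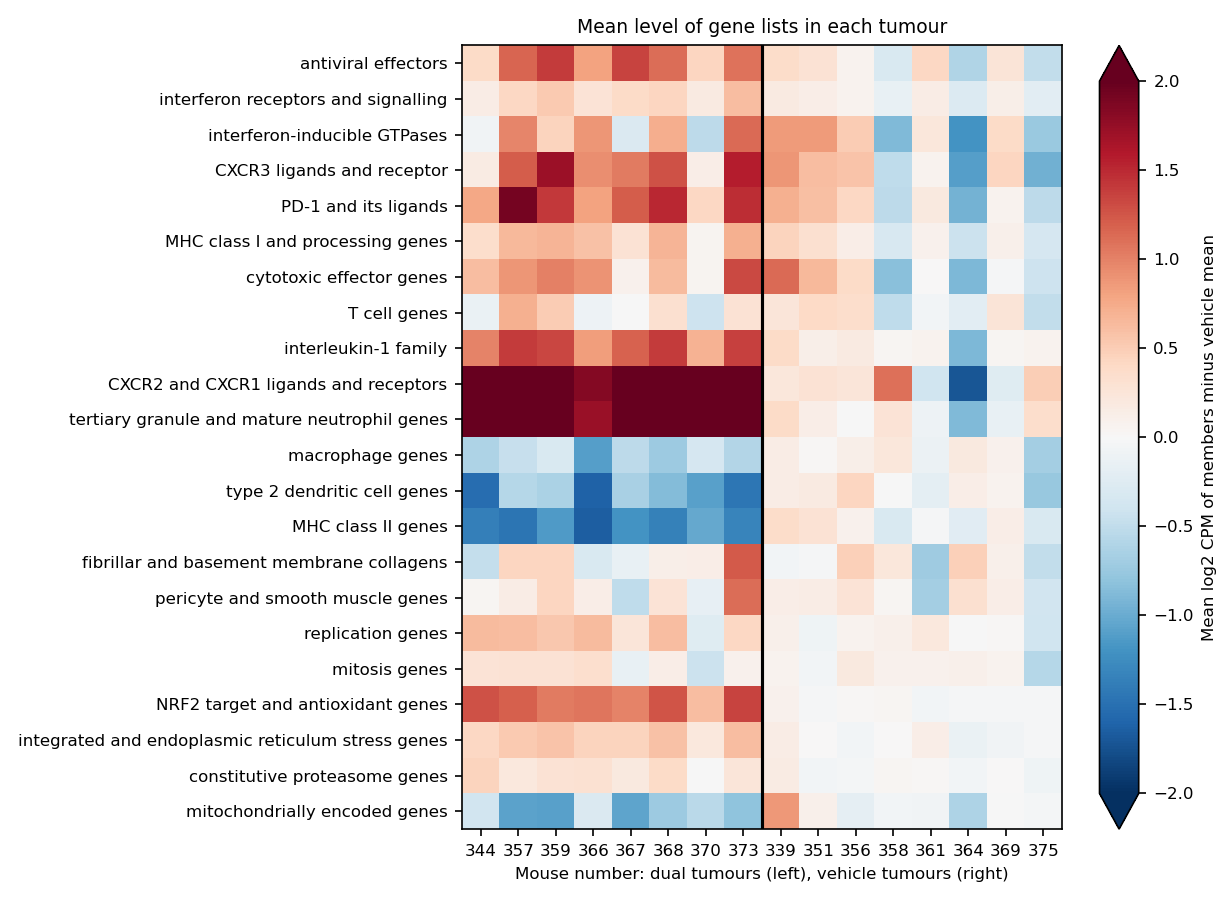
Mean log2 CPM of the members of 22 gene lists in each tumour, minus the mean of the vehicle tumours, as colours that stop at 2 in either direction, with dual tumours left of the line and vehicle tumours right of it. The CXCR2 and mature neutrophil rows are above the vehicle tumours in every dual tumour, MHC class II is below in every dual tumour, and the antiviral row is pale in dual tumours D_344 and D_370, at 0.376 and 0.428.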

How the data were processed

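RNA from 24 Lewis Lung Cancer tumours was made into stranded mRNA libraries, per the labels' protocols. The authors deposited 1 table of log2 CPM values per gene and tumour; FastQC 0.11.8, STAR 2.7.9a, featureCounts 1.6.0, edgeR, limma and GRCm39 are named in the submitters' processing notes. Whole reads could be recovered from 100% of the log2 values (tolerance 0.01 reads, prior count 0.5), which gave depths of 14535983 to 19046105 reads in dual and 14438318 to 17225195 in vehicle tumours and the CPM printed here. A gene at 1 CPM thus rests on few reads, and low values carry counting error.

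Dual and vehicle tumours (8 each) were compared with limma (version 3.58.1, under R 4.3.3), fitted to their deposited log2 values with a variance trend, no covariate, and Benjamini-Hochberg adjustment over all 18723 genes (adjusted p under 0.05). Fold changes are differences of mean deposited log2 values. For genes with few reads they rest partly on the prior count, and can be larger or smaller than the median CPM would give. Genes named are the 20 largest changes in each direction among called genes at or above the median expression, with predicted genes and receptor segments left out, the 3 called members of each list with the smallest p, a fixed set of pathway genes, and further members given as examples. Some genes that meet this rule are not reported here. Members and lists were chosen with earlier results of these data known. Dual and vehicle libraries were numbered in separate blocks. Promoters came from RefSeq (GRCm38.p6) and gene positions from the deposited table (GRCm39). Alternatives were another fit with all 24 tumours, other variance priors, tumour weights, an expression filter, another pseudocount, median centring, quantile normalization, voom weights on the recovered reads, a skeletal muscle covariate, an exact Wilcoxon test, stricter thresholds and leaving out each tumour. The fitting steps were run on simulated reads with a small share of genes changed, against 41.3% of genes called here. That run cannot tell how the steps behave when so many genes differ.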

Additional observations from a re-analysis of the deposited data

Results flagged for a closer look

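In 41 of 444 groups of 8 tumours, over the genes named here, the highest or lowest tumour lay apart from the other 7 by Dixon's test at the 95% level, which chance gives in about 1 in 20 groups. Values are log2 CPM, and no explanation was tested.

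Among dual tumours, D_370 was apart in 10 genes. It was high for Ciita (3.10), Ifngr1 (6.73), Tcf4 (8.08) and Krt5 (-2.70), and low for the replication factor gene Cdt1 (6.14), Mlkl (6.22), Gclc (6.01), Asns (6.79), Atf4 (8.30) and the proteasome gene Psmd7 (7.23). For Krt5 the dual median was 0 CPM and the highest dual value 0.123 CPM, so this flag rests on a few reads at the floor. D_366 was low for Cxcl2 (5.39), Hcar2 (4.52), Il1r2 (4.34), Cd14 (5.58) and Slc2a3 (4.03). D_373 was high for the pericyte gene Rgs5 (5.63), Mmp13 (7.99) and the clock gene Nr1d1 (6.05). D_357 was high for Pdcd1 (3.09), and D_367 was low for Ifng (-3.42).

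Among vehicle tumours, C_364 was low for 12 genes, mostly of the neutrophil and CXCR2 lists: Cxcl3 (-1.41), Cxcl2 (-0.26), Slpi (-0.16), Hcar2 (-0.07), Slfn4 (3.31), Acod1 (0.95), Clec4e (1.46), Cxcr2 (0.31), Ccl3 (0.56), Arg2 (-1.94), Srgn (5.39) and Mlkl (5.68). It was high for the smooth muscle gene Lmod1 (-0.87). C_339 was high for mt-Cytb (13.12), mt-Nd4 (11.71) and Cd24a (2.50), and low for Cd209c (-2.72). C_375 was high for Pvr (6.70) and low for Cd209a (-1.74) and Ccnb2 (5.95). C_361 was high for Cdt1 (6.34).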

How the results depend on the processing

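The counts of 3801 genes higher and 3937 lower stayed within 1.5 times under every alternative fit and test listed for this comparison. With all 24 tumours they were 2803 and 2957, with tumour weights 4422 and 4723, with the muscle covariate 3169 and 3110, and with the exact Wilcoxon test 3446 and 3511. Scaling moved the balance: median centring gave 4109 higher and 3439 lower, and quantile normalization 3452 and 4206. The median of all genes moved by less than 0.1 log2 units in each. Voom weights gave 3781 and 3969. Leaving out each tumour gave 3428 to 4192 genes higher and 3527 to 4277 lower, the smallest counts without D_359 and the largest without D_370. Stricter thresholds gave 850 higher and 829 lower at 2-fold or more, and, with 0.01 as the limit on adjusted p, 2744 higher and 2579 lower. No named gene changed direction with a call in any of these. Of 222 named genes, 21 lost their call with all 24 tumours, 13 with the muscle covariate and 12 with the Wilcoxon test, 4 without a variance trend, 3 after quantile normalization and 1 with voom weights. Counts of calls within single lists moved by over 1.5 times more often, as in these examples. With all 24 tumours, higher and lower calls were 0 and 1 for mitosis, 10 and 1 for TNF and NF-kappaB, 10 and 2 for the interleukin-6 and colony-stimulating list, 9 and 3 for CC chemokines, 2 and 3 for other chemokines, 5 and 4 for complement, 3 and 10 for macrophage, 11 and 1 for other checkpoint, 2 and 0 for T cell, 1 and 1 for mast cell and eosinophil, 5 and 0 for endothelial, 7 and 3 for coagulation, 7 and 3 for collagen and 4 and 2 for lytic death genes. With the muscle covariate they were 0 and 1 for GTPases, 2 and 5 for mitosis and 1 and 5 for nuclear oxidative phosphorylation. Tumour weights gave 6 and 1, 11 and 4, and 10 and 7 for the same lists. Quantile normalization gave 15 and 7 for the stress response and 3 and 10 for nuclear oxidative phosphorylation. The expression filter, which tested fewer genes, left 0 and 4 calls for type 2 dendritic cells. The cause of the other shifts was not tested. No paired analysis was possible because each mouse number occurred in 1 tumour only. Tumour weights gave 8 and 9 calls for epithelial and mesenchymal factors and the Wilcoxon test 6 and 2. Genes with few reads carry counting error, and whether depth limited their calls was not tested.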

Other observations

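Circadian and iron genes were read from the same fit. Of 19 clock genes 4 rose and 2 fell; the repressor gene Nfil3 was at 48.4, 65.6 and 76.6 CPM in dual and 18.8, 27 and 33.2 CPM in vehicle tumours, with no overlap (1.28 ± 0.11), and Nr1d1 rose by 1.25 ± 0.18. The labels used here do not give the hour of collection. Of 21 iron genes 11 rose and 4 fell, among them the importer Tfrc (0.95 ± 0.16) and the exporter Slc40a1 (1.17 ± 0.21). Of 25 sterol synthesis genes 2 rose and 8 fell, or 5 fell without D_357, D_373 or C_361. With all 24 tumours in the fit 1 rose and 1 fell, and with the exact Wilcoxon test 1 rose and 4 fell.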
